A study of Homo sapiens with 8 samples.

Results

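The genes described here are 10 markers that separate epithelial from mesenchymal cells, among 43317 genes on the array. They were taken by name from the gene column of the scanner files, with every probe of each gene. The epithelial members were CDH1, EPCAM, KRT8, KRT18 and KRT19, and the mesenchymal members were CDH2, VIM, FN1, ZEB1 and SNAI2. All 10 were on the array, with 15 probes between them.

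Epithelial cells hold together through cadherin junctions and carry keratin filaments, whereas mesenchymal cells have vimentin filaments, a different cadherin and a fibronectin-rich matrix. Passage from the first state to the second is called the epithelial-mesenchymal transition. It is driven by a few transcription factors, among them ZEB1 and SNAI2, which repress CDH1 and other epithelial genes by binding E-box motifs. In carcinoma lines the markers of both states are often found side by side.

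Gene expression was read on 8 two-colour arrays, each carrying mock RNA labelled with Cy3 and RNA after treatment labelled with Cy5. Each treatment had 1 array. PC3 and C4-2 are prostate cancer lines, 786-O is a renal cancer line and T24 is a bladder cancer line. PC3 cells received bisamide, a small molecule inhibitor of the pirin protein, for 24 h or 48 h, or miR-125b-1-3p, C4-2 cells received miR-199-3p, 786-O cells received miR-532-5p or miR-532-3p, and T24 cells received miR-140-5p or miR-140-3p. The labels give mock cells as not transfected and name a lipid reagent for the miRNA strands, so the effect of a strand and that of transfection cannot be told apart. The Cy3 channel gave the level of each gene in untreated cells of 4 lines, and the Cy5 over Cy3 ratio gave its difference after treatment.

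The mature strands that were introduced are shown because the ratios below are read by strand. Their sequences were taken from RefSeq (GRCh38.p14), 5′ to 3′, with the seed (bases 2 to 8), which pairs with a target, in capitals. The label miR-199-3p does not say whether the a or the b form was used, and both have the sequence given. The 6 seeds are all different.
miR-199-3p: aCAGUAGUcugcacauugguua
miR-125b-1-3p: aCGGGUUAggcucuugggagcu
miR-532-5p: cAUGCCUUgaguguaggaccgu
miR-532-3p: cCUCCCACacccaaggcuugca
miR-140-5p: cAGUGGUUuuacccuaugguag
miR-140-3p: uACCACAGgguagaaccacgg
Complements of these seeds were looked for in the 15 member probes and not in whole transcripts, so this was no search for target sites. Only the second ZEB1 probe held one, that of miR-199-3p, and ZEB1 was not well above background in the C4-2 cells that received this strand.

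Precision is set by how few arrays there are. Each array had 15442 to 19240 genes well above background in both channels, and no spot was saturated. Mock levels are log2 Cy3 signals after background correction with an offset of 50 and quantile normalization of the 8 mock channels. Levels are compared only within a gene. Mock channels of the same line differed little between the 786-O arrays and between the T24 arrays, with an SD of the log2 difference over genes of 0.087 and 0.064 and no gene past 1, so each of these pairs was counted as 1 sample. The bisamide mocks of PC3 differed from each other by an SD of 0.149, and from the miR-125b-1-3p mock of PC3 by 0.233 and 0.226. Nothing in the labels says whether mocks of a line came from separate cultures. The adjusted p-values on lines (limma, Benjamini-Hochberg over all genes, threshold 0.05) therefore measure only the spread between the 3 PC3 mocks, which may be technical, and assume that the other lines vary alike.

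The line labels were checked against defining markers. In C4-2 all 7 luminal prostate markers were well above background, with KLK3 (prostate specific antigen) at a raw Cy3 signal of 13590. In PC3 HOXB13, a prostate lineage factor, was bright at 7455 to 9538, while KLK3 (21.46 to 22.56) and FOLH1 (24.16 to 26.6) were not well above background. In 786-O the renal markers PAX8 (235.4 to 239.2), PAX2 (112.2 to 123.7), CDH6 (152.5 to 163.5) and LRP2 (53.49 to 56.84, and well above background in every line) were well above background, whereas CA9 and CUBN were not. T24 had only UPK1A (30.74 to 37.92) of 6 urothelial markers, with UPK1B, UPK2, UPK3A, GATA3 and KRT20 not well above background, while the renal markers PAX8 (390.3 to 423), PAX2 (550.9 to 619) and LRP2 (203.7 to 214.9) were well above background. After normalization PAX2 was 2.41-fold higher in T24 than in 786-O (adjusted p = 0.00378). The log2 differences of T24 minus 786-O for LRP2 (0.89, adjusted p = 0.0583) and PAX8 (−0.17, adjusted p = 0.0999) did not pass the test. CDH6 at 18.89 to 21.72 was not well above background in T24. These markers did not bear out the bladder label, so each T24 value below is that of the cells labelled T24. The basal markers TP63, KRT5 and KRT14 were not well above background in any line.

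In untreated cells the markers set C4-2 apart from the other lines. C4-2 had the highest CDH1 level and the lowest CDH2, VIM and ZEB1 levels. PC3, T24 and 786-O carried the mesenchymal cadherin, vimentin and ZEB1, yet PC3 and 786-O also carried KRT19 and every line carried KRT8 and KRT18. The members thus did not all divide the lines the same way.

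**Figure D1:**
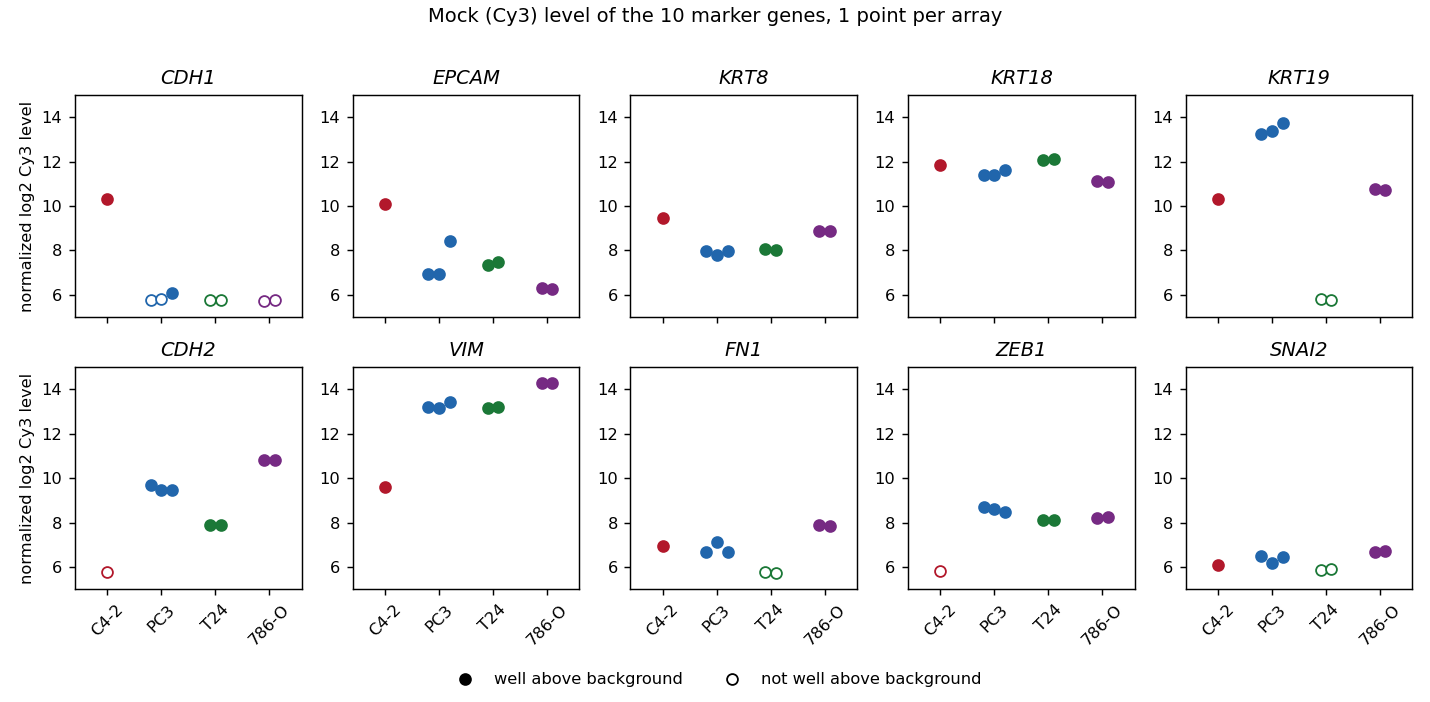
Normalized log2 Cy3 (mock) level of each marker gene, with 1 point per array, by cell line. Filled points are well above background and open points are not. CDH1 is filled in C4-2 and on a single PC3 array, whereas CDH2 and ZEB1 are open only in C4-2 and KRT19 only in T24.

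CDH1 encodes E-cadherin, the adhesion protein of epithelial junctions. Its probe (GRCh37 chr16:68869214-68869273, plus strand) was spotted 10 times on each array. The raw Cy3 signal was 792.8 in C4-2. In PC3 it was 21.56 and 23.39 in the bisamide mocks and 41.86 in the miR-125b-1-3p mock, and only the last was well above background. T24 (21.65 and 21.74) and 786-O (20 and 20.78) were not well above background on either array. The C4-2 level was 21.7-fold that of PC3, which measured it on 1 of 3 mocks (log2 difference 4.44 ± 0.157 SE, adjusted p = 0.00103), at least 22.1-fold that of T24 (adjusted p = 0.00191) and at least 22.9-fold that of 786-O (adjusted p = 0.00176). The exon or UTR that the member probes lie in was not analysed here. A bound sets the bright line against the lowest signal well above background on the dim arrays, or the dim probe's own where that is higher.

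EPCAM, an epithelial surface adhesion molecule (probe at GRCh37 chr2:47613894-47613953), was also brightest in C4-2, but PC3 mocks differed widely. Raw Cy3 was 681.3 in C4-2 and 119.3 to 120.6 in the bisamide mocks of PC3, against 476.5 in the miR-125b-1-3p mock. T24 gave 146 and 170.6, and 786-O gave 34.27 and 35.79. No pair of lines passed the test: the C4-2 minus PC3 difference was 2.68 (95% interval 0.62 to 4.74, adjusted p = 0.0841) and that of C4-2 minus 786-O was 3.83 (1.31 to 6.35, adjusted p = 0.0685). Without the miR-125b-1-3p mock all 6 pairs passed, and PC3 turned from 0.04 above T24 to 0.45 below it (adjusted p = 0.00937). The spread in that fit came from the bisamide mocks alone, which differed by −0.02 in EPCAM. Its small p-values rest on that narrow spread and settle no pair.

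KRT8 and KRT18 encode the keratin pair of simple epithelia, and both were well above background in every mock. The brightest KRT8 probe was at GRCh37 chr12:53291026-53291085 and that of KRT18 spanned chr12:53346116-53346554. KRT8 raw Cy3 was 408.3 in C4-2, 254.7 to 326.1 in PC3, 267.3 and 272.3 in T24, and 259.8 and 260.6 in 786-O. After normalization KRT8 was 2.92-fold higher in C4-2 than in PC3 (adjusted p = 0.00337) and 2.68-fold higher than in T24 (adjusted p = 0.00784). It was also higher in 786-O than in PC3 by 0.98 and than in T24 by 0.85 on the log2 scale (adjusted p = 0.0132 and 0.0364), but with scaling to the 75th percentile these differences were 0.31 and 0.30 (adjusted p = 0.0984 and 0.17), and without the bisamide 24 h mock the KRT8 call between T24 and 786-O was lost (adjusted p = 0.0874).

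KRT18 had raw Cy3 of 2780 in C4-2, 3723 to 4655 in PC3, 4673 and 4956 in T24, and 1331 and 1370 in 786-O. Only T24 over 786-O passed the test, at 1.97-fold (adjusted p = 0.0459), a call lost without the bisamide 24 h mock (adjusted p = 0.113), without the bisamide 48 h mock (adjusted p = 0.118) and with an offset of 0 (adjusted p = 0.169). C4-2 stood above PC3 by 0.40 after quantile normalization (95% interval 0.02 to 0.78, adjusted p = 0.132) although its raw signal was lower, and scaling to the 75th percentile placed PC3 above C4-2.

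KRT19, a small keratin of simple and transitional epithelia (probe at GRCh37 chr17:39679918-39679977), did not follow CDH1. Raw Cy3 was 12780, 13910 and 18250 in PC3, 1024 and 1086 in 786-O, 789.2 in C4-2, and 22.17 and 22.85 in T24, where it was not well above background. PC3 was 8.77-fold above C4-2 (adjusted p = 0.00422), 6.52-fold above 786-O (adjusted p = 0.00872) and at least 195-fold above T24 (adjusted p = 0.00194). The gap between C4-2 and 786-O was −0.43 (adjusted p = 0.448). Without the bisamide 48 h mock PC3 over 786-O missed the threshold (adjusted p = 0.0501). T24 lay below both C4-2 and 786-O, by at least 22.2-fold and at least 29.8-fold (adjusted p = 0.00404 and 0.00604).

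CDH2 encodes N-cadherin, the adhesion protein that mesenchymal and neural cells use (brightest probe at GRCh37 chr18:25530936-25530995). Raw Cy3 was 1092 and 1113 in 786-O, 956.6, 1026 and 1191 in PC3, 236.9 and 242.4 in T24, and 20.09 in C4-2, which was not well above background. All 6 pairs of lines passed the test. C4-2 was at least 29.8-fold below 786-O, at least 12.3-fold below PC3 and at least 3.93-fold below T24 (adjusted p = 0.000913, 0.000845 and 0.00448). Among the other lines, 786-O was 2.43-fold above PC3 and PC3 was 3.12-fold above T24 (adjusted p = 0.00943 and 0.00669). All 6 calls were kept under 12 other settings.

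VIM encodes vimentin, the filament protein of mesenchymal cells (probe spanning GRCh37 chr10:17278347-17279256), and was well above background in all 8 mocks. Raw Cy3 was 453.3 in C4-2 against 12130 to 14330 in PC3, 9119 and 9707 in T24, and 15560 and 17620 in 786-O. C4-2 was 12.7-fold below PC3, 12.2-fold below T24 and 25.8-fold below 786-O (adjusted p = 0.000956, 0.0019 and 0.00112). PC3 and T24 differed by 0.06 (adjusted p = 0.884), and 786-O was about 1 log2 unit above each of them (1.02 and 1.08, adjusted p = 0.0174 and 0.0324). The last pair of calls was lost without the bisamide 24 h mock (adjusted p = 0.0728 and 0.0957) and without the bisamide 48 h mock (adjusted p = 0.0681 and 0.0892). With an offset of 0 both calls were lost as well (adjusted p = 0.0647 and 0.141).

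ZEB1, the zinc finger repressor (brightest probe at GRCh37 chr10:31818063-31818122), was not well above background in C4-2 at a raw Cy3 of 21.07. It was 506.2 to 573.1 in PC3, 287.2 and 293.8 in T24, and 156.5 and 161.3 in 786-O. C4-2 was at least 6.43-fold below PC3, at least 4.65-fold below T24 and at least 5.03-fold below 786-O (adjusted p = 0.001, 0.00272 and 0.00232). The other lines did not pass the test against one another. T24 and 786-O differed by −0.11 (adjusted p = 0.752), and by +0.41 with 75th percentile scaling (adjusted p = 0.0302), so their order was not settled.

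The FN1 and SNAI2 probes were dim throughout, and which transcripts of each gene they read was not analysed. FN1, the matrix protein fibronectin (probe spanning GRCh37 chr2:216288217-216288895), had raw Cy3 of 57.12 in C4-2, 86.6 to 140 in PC3, and 119.7 and 124.2 in 786-O, and it was not well above background in T24 (19.24 and 20.11). Only 786-O over T24 passed, at least 4.08-fold (adjusted p = 0.028), and this call was lost without the bisamide 24 h mock (adjusted p = 0.0841).

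SNAI2 (also called SLUG), a zinc finger repressor related to SNAI1, was read by a probe on chromosome 8 and spanned raw Cy3 of 29.29 in C4-2, 47.32 to 71.88 in PC3, and 49.33 and 50.88 in 786-O, with 26.05 and 27.35 in T24 not well above background. No pair of lines passed the test. The widest gap was T24 minus 786-O at −0.82 (95% interval −1.32 to −0.31, adjusted p = 0.0802).

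By pair of lines, 6 of 10 members passed for C4-2 against PC3, 2 higher in C4-2 and 4 lower, where 13.1% of all genes tested were higher and 10.1% lower. Against T24 the C4-2 counts were 3 higher and 3 lower (9.9% and 8.82% of all genes), and against 786-O they were 1 and 3 (9.77% and 8.78%). PC3 had 2 higher and none lower than T24 (5.7% and 8.1%), and 1 higher and 3 lower than 786-O (7.22% and 9.38%). T24 had 1 higher and 5 lower than 786-O (5.49% and 5.73%), but 2 in all without the bisamide 24 h mock and 3 with an offset of 0. Over all genes these settings called 1048 higher and 1192 lower, and 554 and 708, against 2379 and 2482. Without the bisamide 48 h mock 7 members passed for C4-2 against 786-O and 4 for PC3 against T24, and without the miR-125b-1-3p mock 5 passed for PC3 against T24 and 7 for PC3 against 786-O. Over all genes the former lowered calls from 4234 higher and 3802 lower to 2765 and 2480 for C4-2 against 786-O. For PC3 against T24 all-gene calls fell from 2470 and 3507 to 1168 and 1638. Without the miR-125b-1-3p mock they rose to 3742 and 4261 for PC3 against T24 and 4404 and 4663 for PC3 against 786-O. With an offset of 0 the count for PC3 against 786-O was 2. Over all genes that setting called 2340 higher and 1972 lower. Shares of all genes, here and below, include genes not well above background on any array. Among genes above background on at least 1 array, tested alone, C4-2 had 5618 of 22629 higher and 4700 lower than PC3. It had 4359 and 4081 against T24, and 4353 and 3973 against 786-O. Of 22631 genes PC3 had 2853 higher and 3718 lower than T24, and 3499 and 4149 against 786-O. T24 had 2560 and 2616 against 786-O. Scaling to the 75th percentile moved the median of all genes by 0.44 for C4-2 minus PC3, 0.31 for C4-2 minus T24, −0.12 for PC3 minus T24, −0.44 for PC3 minus 786-O and −0.32 for T24 minus 786-O. It also turned the split of calls over all genes from 56.4% to 82.9% higher in C4-2 for the first of these, from 52.9% to 84.3% for the second, from 43.5% to 17.8% higher in PC3 for PC3 against 786-O and from 48.9% to 15.9% higher in T24 for the last. The scanner's processed signal gave splits of 77.3%, 76.6%, 19.3% and 15% in these 4 pairs. Of 28 member calls in the 6 pairs, 20 were kept under all 12 other settings, among them every C4-2 call of CDH2, VIM, ZEB1, KRT8 and KRT19. CDH1 against 786-O lost its call with the scanner's processed signal alone (adjusted p = 0.07). The size of a difference from a line near background depended on the background correction and its offset. Over these settings the C4-2 minus PC3 difference was 4.22 to 9.03 for CDH1 and that of C4-2 minus 786-O was −10.13 to −4.04 for CDH2, while VIM, bright in each line, stayed within −4.26 to −3.58 for C4-2 minus PC3.

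Levels in the PC3 mock of the miR-125b-1-3p array departed from the bisamide mocks in several members. The log2 difference was 1.46 for EPCAM (2.74-fold, above 99.9% of genes), 0.45 for KRT19, 0.31 for CDH1, 0.26 for KRT18 and 0.24 for VIM, and it was −0.18 for ZEB1 and −0.24 for FN1. The bisamide mocks themselves differed by less than this in EPCAM (−0.02), CDH1 (−0.04), KRT18, KRT19, VIM and ZEB1, and by more in FN1 (−0.45), SNAI2 (0.31), CDH2 (0.23) and KRT8 (0.22). In a wider epithelial list 4 of 22 genes above background were higher by over 0.5 and none lower, where 1.84% of all genes were higher and 1.24% lower. These, picked out after their values were seen, were DSP (desmoplakin, 1.34), ELF3 (an epithelial transcription factor, 0.83), SPINT1 (a protease inhibitor, 0.61) and PKP3 (plakophilin, 0.52). In the mesenchymal list 4 of 23 were higher, led by SPARC (a matrix protein, 1.23), and 1 was lower. These values compare single arrays of 1 line, and the part that culture or labelling played was not tested.

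**Figure D2:**
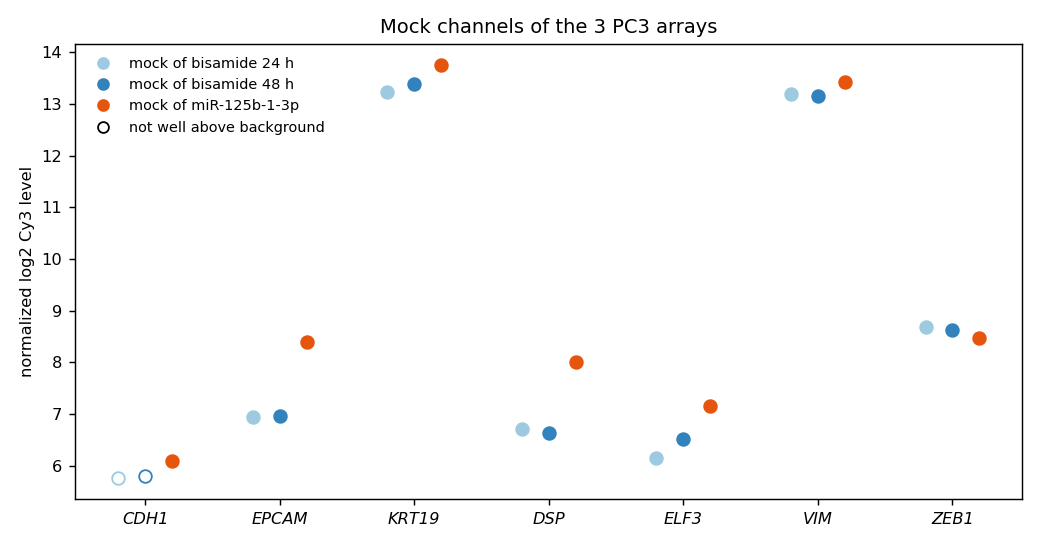
Normalized log2 Cy3 level of selected genes in the mock channels of the PC3 arrays, with 1 point per array; open points are not well above background. EPCAM, DSP and ELF3 are higher in the mock of the miR-125b-1-3p array than in both bisamide mocks.

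Other genes of both states were read from lists of 29 epithelial genes, 29 mesenchymal genes and 7 transition factors. Among the epithelial genes, 20 were higher in C4-2 than in PC3 and 3 lower, 17 higher and 1 lower than in T24, and 21 higher and 1 lower than in 786-O. Of all genes 13.1%, 9.9% and 9.77% were higher in these pairs and 10.1%, 8.82% and 8.78% lower. The median differences were 1.20, 1.72 and 1.86, beside medians of 0.004, 0.003 and 0 over all genes tested. Between the other lines the list was divided, with 5 higher and 6 lower in PC3 than in T24, 7 and 3 in PC3 against 786-O, and 7 and 2 in T24 against 786-O. Of all genes 5.7% were higher and 8.1% lower in the first of these pairs, 7.22% and 9.38% in the second and 5.49% and 5.73% in the last. Among genes above background on at least 1 array, tested alone, 2853 of 22631 were higher and 3718 lower in the first pair. In the second these numbers were 3499 and 4149, and in the last 2560 and 2616. Leaving out the bisamide 48 h mock lowered the count for C4-2 against PC3 from 23 called to 14, that for PC3 against T24 from 11 to 5, that for PC3 against 786-O from 10 to 4 and that for T24 against 786-O from 9 to 2. The last was 3 without the bisamide 24 h mock, and 75th percentile scaling gave 21 called in each pair of PC3 or T24 with 786-O. That scaling called 6673 of all 43317 genes higher and 30743 lower for PC3 against 786-O, and 5453 and 28883 for T24 against 786-O. Without the bisamide 48 h mock calls over all genes fell too, to 3786 higher and 2728 lower for C4-2 against PC3. They fell to 1168 and 1638 for PC3 against T24, 1515 and 2253 for PC3 against 786-O, and 886 and 1043 for T24 against 786-O.

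Tight junction claudins differed between lines, though not alike. CLDN7 had raw Cy3 of 735.5 in C4-2 and 30.38 to 34.77 in PC3, 19.2-fold apart (adjusted p = 0.000203), and C4-2 was at least 20.9-fold above 786-O (adjusted p = 0.000302). CLDN3 was bright in both prostate lines (2042 in C4-2, 1493 to 2108 in PC3) and not well above background in T24 or 786-O, which put PC3 at least 22.1-fold above T24 (adjusted p = 0.00413). CLDN4 was 4964 in C4-2, 9856 to 10460 in PC3, and 25.1 and 27.35 in T24, and it was 126-fold higher in PC3 than in T24, where 1 of 2 mocks measured it (adjusted p = 0.000567). CLDN1 went against the others, at 1241 and 1255 in T24 and 19.76 in C4-2, where it was not well above background, a gap of at least 18.6-fold (adjusted p = 0.00184).

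Other epithelial genes differed as well. PRSS8 (prostasin, a membrane protease) was 48.5-fold higher in C4-2 than in PC3, where 1 of 3 mocks measured it (adjusted p = 0.000311) and at least 48.6-fold higher than in T24 (adjusted p = 0.000549). CRB3, a polarity protein, was 13.6-fold higher in C4-2 than in PC3, also measured on 1 of 3 mocks (adjusted p = 0.000407). KRT7, a keratin of simple epithelia, was instead 8.08-fold lower in C4-2 than in PC3 (adjusted p = 0.0256). PKP3 was 10.6-fold higher in PC3 than in T24 (adjusted p = 0.00911), while LSR and MARVELD2, of tricellular junctions, were 2.35-fold and 2.41-fold lower (adjusted p = 0.00933 and 0.0341). JUP (plakoglobin) and MARVELD2 were higher in T24 than in 786-O by 3.23-fold and 4.02-fold (adjusted p = 0.0161 and 0.0236).

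**Figure D3:**
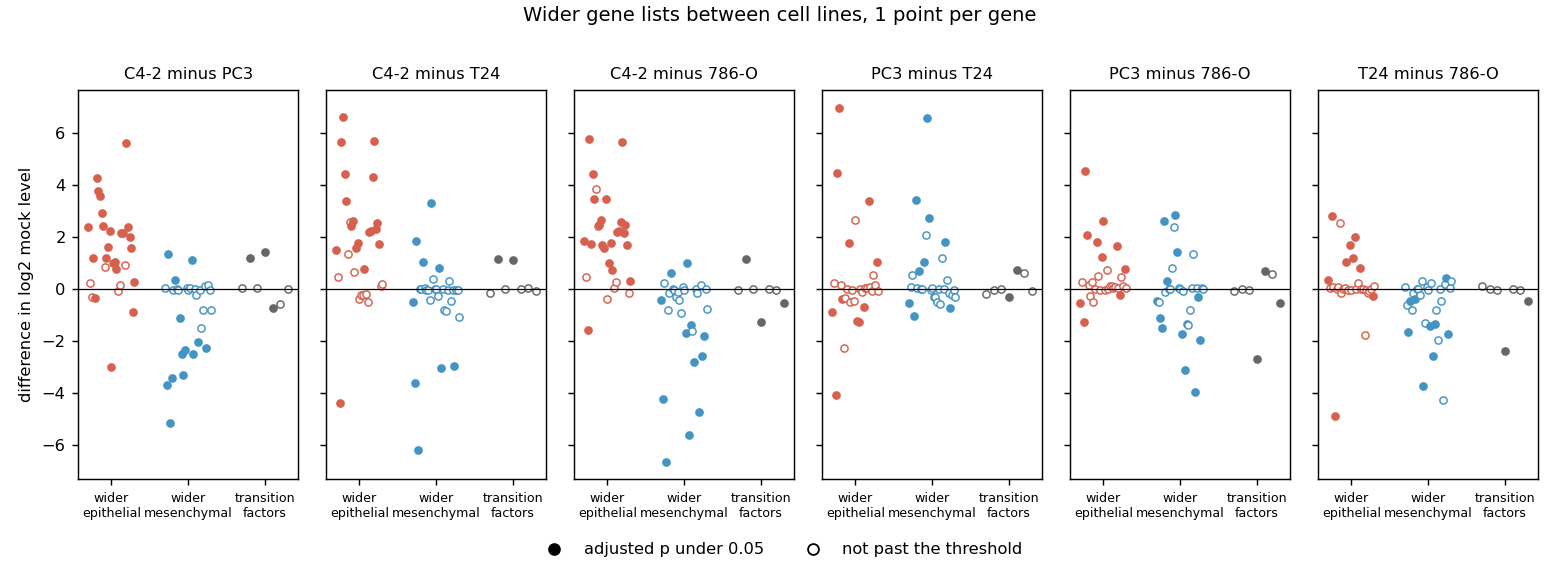
Difference in log2 mock level between cell lines, with 1 point per gene of the wider epithelial, wider mesenchymal and transition factor lists in each pair of lines. Filled points passed an adjusted p under 0.05. In the 3 pairs with C4-2 most filled epithelial points lie above 0 and most filled mesenchymal points below it.

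Of the mesenchymal list, 10 were lower and 3 higher in C4-2 than in PC3, 5 lower and 4 higher than in T24, and 10 lower and 2 higher than in 786-O. The shares of all genes were 10.1% lower and 13.1% higher, 8.82% and 9.9%, and 8.78% and 9.77%. Of 22629 genes above background on at least 1 array, tested alone, 4700 were lower and 5618 higher in the first pair. In the others these numbers were 4081 and 4359, and 3973 and 4353. The medians of the list were −0.04, −0.03 and −0.44, and 75th percentile scaling changed the numbers called to 24, 19 and 6. Of all 43315 genes that scaling called 6466 lower and 31351 higher for C4-2 against PC3. It called 5527 and 29763 for C4-2 against T24, and 2072 and 2590 for C4-2 against 786-O. CD44, a hyaluronan receptor, was at 22.02 in C4-2, not well above background, against 2826 to 3055 in PC3, 4522 and 4526 in T24 and 3375 and 3390 in 786-O. C4-2 lay at least 33.4-fold, at least 68.6-fold and at least 93.4-fold below them (adjusted p = 0.000166, 0.000265 and 0.000243). AXL, a receptor tyrosine kinase, was 13-fold lower in C4-2 than in PC3 and 12.2-fold lower than in T24 (adjusted p = 0.00203 and 0.00425). CDH11 (cadherin 11) was brightest in PC3 (663.4 to 903), at least 9.46-fold above C4-2 and at least 9.84-fold above T24 (adjusted p = 0.00152 and 0.00305).

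Matrix genes divided PC3, T24 and 786-O. LOXL2, a collagen cross-linking enzyme, was highest in 786-O, 8.65-fold above PC3, 6.04-fold above T24 and at least 46.2-fold above C4-2 (adjusted p = 0.00512, 0.0156 and 0.00195). SPARC was 15.5-fold higher in 786-O than in PC3 (adjusted p = 0.0331), and THBS1 (thrombospondin 1) 3.89-fold (adjusted p = 0.0132). The collagen VI chain COL6A1 was instead highest in PC3, 96.1-fold above T24 and 7.24-fold above 786-O (adjusted p = 0.00278 and 0.0101), and C4-2 was 9.8-fold above T24 (adjusted p = 0.00984). COL6A2, its partner chain, was at least 6.64-fold higher in PC3 than in T24 (adjusted p = 0.0101). Mesenchymal genes that were higher in C4-2 than in PC3 after normalization were CALD1 (caldesmon, 2.52-fold), LOX (lysyl oxidase, 2.15-fold, measured on 2 of 3 PC3 mocks) and COL1A1 (1.26-fold), with adjusted p = 0.00419, 0.0048 and 0.0194. Raw Cy3 in C4-2 and PC3 was 610.1 against 496.3 to 627.5 for CALD1, and 62.29 against 23.2 to 35.55 for LOX. For COL1A1 the raw signal was lower in C4-2 (53.93 against 66.81 to 74.05), so its direction rested on the normalization.

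Among the transition factors SNAI1, which also represses CDH1, differed in all 6 pairs. It was 6.45-fold higher in 786-O than in PC3, 5.19-fold higher than in T24 and 2.39-fold higher than in C4-2 (adjusted p = 0.000461, 0.00151 and 0.00172), and C4-2 was 2.7-fold above PC3 (adjusted p = 0.000793). TWIST1 was well above background only in PC3 (68.57 to 72.34), at least 1.49-fold above C4-2 (adjusted p = 0.00123). GSC was well above background only in C4-2, at least 2.15-fold above PC3 (adjusted p = 0.000624). ZEB2, the paralog of ZEB1, was dim, at 35.54 and 38.1 in 786-O and not well above background in C4-2 or PC3.

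The genes whose levels over the 4 line means were most like CDH1, among 15383 candidates, were ST8SIA6-AS1, CLDN7 and IGFBP2, with root mean square differences of 0.063, 0.071 and 0.08 log2 units after centring each gene. As CDH1 was not well above background in T24, in 786-O or on 2 of 3 PC3 mocks, this likeness rests on the C4-2 level and on values near background elsewhere, and the order of these genes has little meaning. Those most like VIM were S100A10, AXL and ITGA3, at 0.06, 0.211 and 0.301.

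Promoter sequences of the wider epithelial list were searched for the E-box CACCTG, or CAGGTG on the other strand, which is the motif bound by ZEB1 and SNAI2. RefSeq windows (GRCh38.p14) held 250 bases upstream of a start, and several starts of a gene can overlap. The motif was present in windows of 11 of 17 epithelial genes with a window (13 of 23 windows), in 3 of 18 mesenchymal genes (4 of 28 windows) and in 17.5% of all 35116 windows, or 20.6% of all 27305 genes. Among the members KRT8, CDH2, VIM and FN1 had no match in their windows and ZEB1 had one in 2 windows, while CDH1, EPCAM, KRT18, KRT19 and SNAI2 had no entry. A match is a description of letters and not a bound site. The windows with the most matches are printed, chosen after the matches were counted, with the motif in capitals. They belong to CRB3 (chr19:6464021-6464270, plus strand), CLDN7 (chr17:7262479-7262728, minus strand) and AP1M2, an epithelial sorting adaptor (chr19:10587313-10587562, minus strand), each of which was higher in C4-2 than in each other line.
CRB3: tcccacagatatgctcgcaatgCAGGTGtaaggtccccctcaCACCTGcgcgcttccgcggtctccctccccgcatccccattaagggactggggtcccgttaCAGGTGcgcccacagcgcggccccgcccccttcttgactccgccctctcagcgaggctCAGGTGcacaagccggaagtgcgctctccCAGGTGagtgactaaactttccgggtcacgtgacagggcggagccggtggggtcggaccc
CLDN7: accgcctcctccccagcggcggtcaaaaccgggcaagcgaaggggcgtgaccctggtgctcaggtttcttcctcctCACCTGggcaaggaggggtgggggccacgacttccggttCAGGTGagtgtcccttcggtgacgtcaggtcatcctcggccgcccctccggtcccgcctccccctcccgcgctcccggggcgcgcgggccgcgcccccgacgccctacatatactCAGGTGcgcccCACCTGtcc
AP1M2: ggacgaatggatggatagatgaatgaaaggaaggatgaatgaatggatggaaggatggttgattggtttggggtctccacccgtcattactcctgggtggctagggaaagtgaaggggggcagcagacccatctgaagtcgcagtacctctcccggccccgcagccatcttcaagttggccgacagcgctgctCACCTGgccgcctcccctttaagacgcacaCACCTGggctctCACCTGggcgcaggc
For AP1M2 the C4-2 level was at least 5.07-fold above PC3, where it was not well above background, and 2.82-fold and 3.62-fold above T24 and 786-O. Not all genes with a match were highest in C4-2. OCLN had raw Cy3 of 28.79 in C4-2 against 62.98 and 72.59 in T24. MUC1 was not well above background in C4-2 (24.26), against 32.87 and 33.12 in T24. Whether the motif and the level of a gene go together was not tested.

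After loess with the offset of 50, members with a ratio past 0.5 were found in 786-O alone. This did not hold under every setting, since CDH1 with miR-125b-1-3p was past 0.5 under 5 of 8 other settings and EPCAM with miR-199-3p under 4 of 8, and median centring without loess put 2 to 9 members past 0.5 on each array. That centring also put many of all genes measured past 0.5, from 1297 of 15669 with miR-532-5p to 8652 of 19240 with bisamide at 24 h. Ratios are log2 Cy5 over Cy3 after loess, and with 1 array per treatment and no dye swap they carry no test. A size of 1.5 is the one the study used to pick genes on arrays of another miRNA, and 0.5 describes smaller differences. Members well above background in both channels numbered 9 on each bisamide array, 10 with miR-125b-1-3p, 8 with miR-199-3p, 9 with each miR-532 strand and 6 with each miR-140 strand. None was past 0.5 on either bisamide array (1.45% and 1.79% of all genes measured were), for miR-125b-1-3p (2.65%) or miR-199-3p (4.49%), or in T24 cells given miR-140-5p (4.63%) or miR-140-3p (2.09%). With miR-532-5p 1 of 9 members was past 0.5 (7.27% of all genes) and with miR-532-3p 3 of 9 (5.55%). Only KRT19 with miR-532-3p was past 1.5, beside 0.149% of all genes on that array. The share of all genes past 1.5 was 0.078% and 0.0368% with bisamide at 24 h and 48 h, 0.121% for miR-199-3p, 0.0107% for miR-125b-1-3p, 0.102% for miR-532-5p, 0.142% for miR-140-5p and 0.0114% for miR-140-3p.

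**Figure D4:**
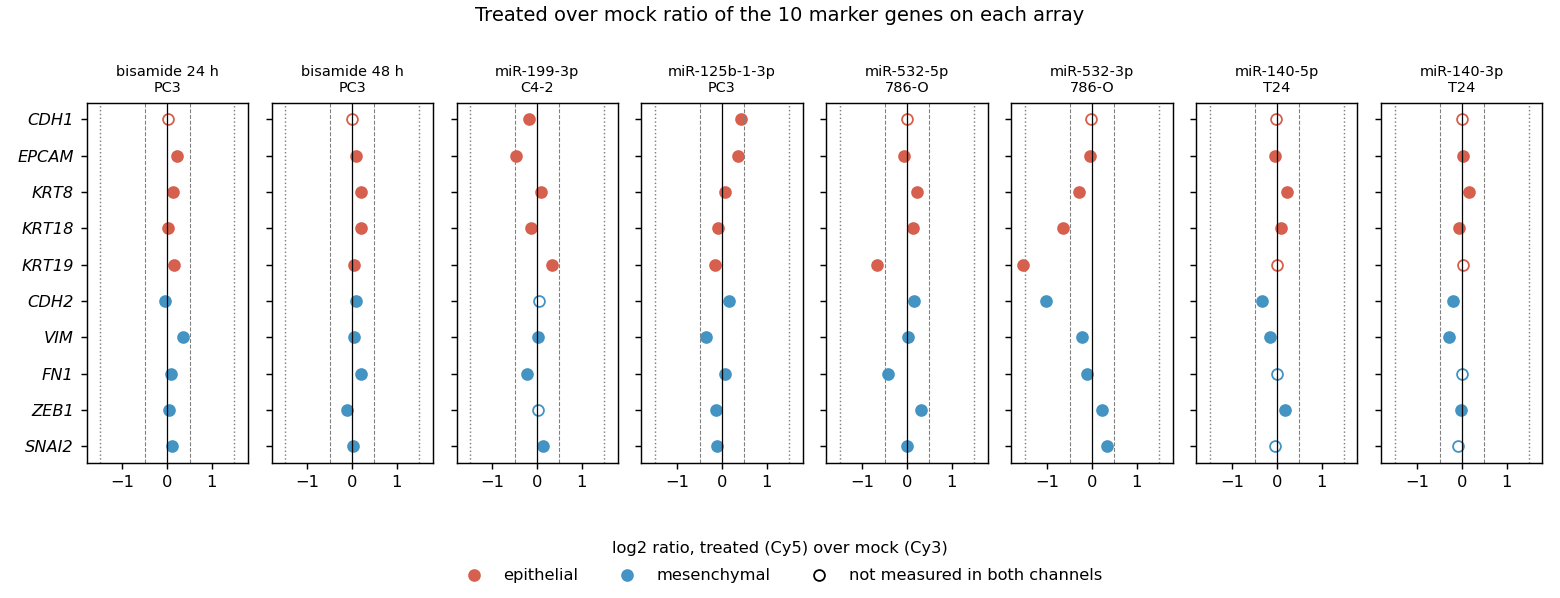
Log2 ratio of treated (Cy5) over mock (Cy3) RNA of each marker gene on each array, with 1 point per gene. Dashed lines mark a size of 0.5 and dotted lines 1.5, and open points were not well above background in both channels. KRT19, CDH2 and KRT18 lie left of −0.5 with miR-532-3p, and KRT19 also with miR-532-5p.

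In 786-O cells KRT19 was lower with both strands of miR-532. The ratio was −1.55 with miR-532-3p (raw Cy3 1024, Cy5 460.4), lower than all but 0.104% of genes measured, and −0.67 with miR-532-5p (1086 and 613.7). On the other arrays where it was measured it lay between −0.16 and 0.33. KRT19 had 1 probe, so no second probe could be compared.

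CDH2 and KRT18 were low with miR-532-3p and not with miR-532-5p. For CDH2 the ratio was −1.02 (raw Cy3 1092, Cy5 745.5) against 0.16 (1113 and 1157), and its second probe gave −0.98 against −0.05. For KRT18 the ratio was −0.64 (1331 and 1234) against 0.13 (1370 and 1406), and its second probe gave −0.62 against 0.01. Both genes were thus lower on both of their probes. Without loess, after median centring alone, the miR-532-3p ratios were −1.10 for KRT19, −0.53 for CDH2 and −0.11 for KRT18, where the median of all genes measured stood at 0.17.

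KRT8, the filament partner of KRT18, was −0.29 with miR-532-3p and 0.23 with miR-532-5p on its brightest probe. A further KRT8 probe (GRCh37 chr12:53343241-53343300), which lies apart from the others and nearer to KRT18, gave 0.30 and 0.55, so the direction with miR-532-3p differed between probes. ZEB1 was 0.22 with miR-532-3p and 0.32 with miR-532-5p, and its second probe gave 0.30 and 0.26. SNAI2 was 0.33 and 0.005, VIM −0.22 and 0.02, and FN1 −0.10 and −0.42. CDH1 was not well above background in 786-O before or after either strand.

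**Figure D5:**
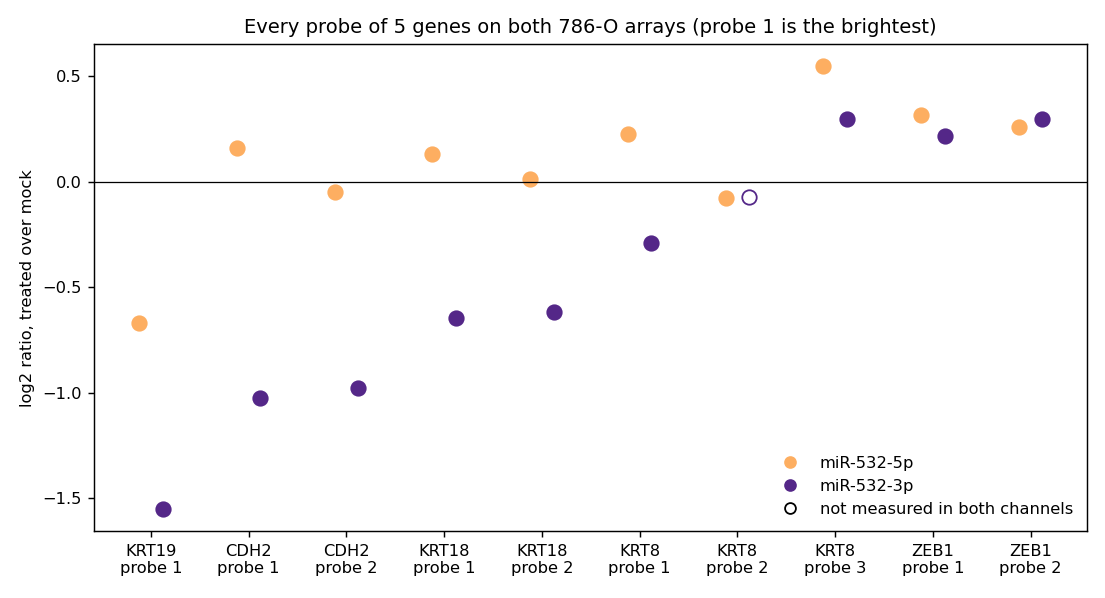
Log2 ratio of treated over mock RNA for every probe of KRT19, CDH2, KRT18, KRT8 and ZEB1 on both 786-O arrays, with 1 point per probe and array; the open point was not measured in both channels. Both probes of CDH2 and of KRT18 lie below −0.5 with miR-532-3p, whereas the KRT8 probes lie on both sides of 0.

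In C4-2 cells with miR-199-3p, CDH1 had a ratio of −0.19 with an SD of 0.041 over its 10 spots, which are repeats within 1 array and not of the treatment. EPCAM was −0.47, lower than all but 3.12% of genes, with −0.52 at an offset of 0. KRT19 was 0.33, FN1 −0.22, SNAI2 0.14, KRT18 −0.13, KRT8 0.09 and VIM 0.01. With median centring and no loess CDH1 and EPCAM turned positive, at 0.45 and 0.14. CDH2 and ZEB1, not well above background in mock cells, were also not well above background after miR-199-3p.

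In PC3 cells with miR-125b-1-3p all 10 members were measured. CDH1 was well above background on all 10 spots of both channels, with raw Cy3 of 41.86 and Cy5 of 90.05 and a ratio of 0.42 (SD 0.06 over spots), above 97.1% of genes. The offset of 50 weighs on so dim a gene, and with an offset of 0 the CDH1 ratio was 0.91 and with the scanner's own ratio 0.98. EPCAM was 0.35, above 95.4% of genes, and VIM was −0.35, lower than all but 2.72%. The remaining members lay between −0.16 for KRT19 and 0.17 for CDH2, and for ZEB1 the probes differed in direction (−0.14 and 0.17).

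With bisamide in PC3 cells the ratios of the members were small at both times. VIM had the widest ratio, 0.36 at 24 h and 0.05 at 48 h. EPCAM was 0.23 and 0.09, KRT8 0.14 and 0.20, KRT18 0.02 and 0.19, KRT19 0.15 and 0.05, FN1 0.08 and 0.20, SNAI2 0.11 and 0.02, and CDH2 −0.05 and 0.09. ZEB1 was 0.05 and −0.11, and its second probe gave 0.32 and 0.18, so its direction at 48 h differed between probes. CDH1 was not well above background in either channel at 24 h or 48 h.

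In T24 cells CDH2 was −0.34 for miR-140-5p and −0.20 for miR-140-3p, and its second probe gave −0.13 and −0.10. VIM was −0.16 and −0.30, ZEB1 0.18 and −0.01, KRT8 0.23 and 0.15, KRT18 0.10 and −0.06, and EPCAM −0.05 and 0.03. CDH1, KRT19 and FN1 were not well above background in either channel, and SNAI2 was well above background in Cy5 but not in Cy3.

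The number of genes of the wider lists past 0.5 differed between arrays, and none was past 1.5. With bisamide the only gene past 0.5 was CLDN3 at 48 h (−0.53). With miR-199-3p in C4-2, the junction genes MARVELD2 and CLDN7 were −0.99 and −0.61, while RAB25, a trafficking protein of epithelia, was 0.62 and THBS1 was 0.63. With miR-125b-1-3p in PC3, 2 of 22 epithelial and 3 of 22 mesenchymal genes were past 0.5, all higher, beside 2.65% of all genes in either direction, among them CLDN1 (0.61) and COL1A1 (0.65).

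In 786-O the mesenchymal list had ratios in both directions. With miR-532-5p, 4 of 22 mesenchymal genes were higher and 1 lower, beside 7.27% of all genes in either direction, with NT5E (the ectonucleotidase CD73) at 1.37, SPARC at 1.11 and THBS1 at −0.60. With miR-532-3p, NT5E was −0.65, while SPARC was 0.54 and ITGA5 (an integrin chain that binds fibronectin) was 0.59, and the epithelial factor ELF3 was −0.62. In T24, CD44 was −1.48 for the 5p strand of miR-140 and −0.71 for the 3p strand. With miR-140-5p 4 of 16 epithelial genes were lower and 1 higher, beside 4.63% of all genes in either direction, with MARVELD2 at −0.85. Of 16 mesenchymal genes 2 were lower and 2 higher on that array, the latter NT5E and LOX, both at 0.75. With miR-140-3p ITGA5 was 0.55.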

How the data were processed

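Two-colour 60-mer arrays of 8 treated samples were used, with mock RNA in Cy3 and treated RNA in Cy5. The deposited values were scanner intensity per spot from Agilent Feature Extraction 11.5.1.1, per the file headers, with probe positions on GRCh37, and the deposited log10 ratio of the scanner software was used only as an alternative. A further table of the authors' log10 ratios was not used.

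Control spots were left out after background correction with normexp and an offset of 50 in limma 3.58.1 (R 4.3.3). Ratios were normalized by loess within an array, and mock levels by quantiles over the 8 Cy3 channels. The 60901 spots were averaged to 58201 probes, and the brightest probe stood for each of 43317 genes. A probe counted as well above background where over 0.5 of its spots did. Lines were compared with limma (lmFit, eBayes) over 6 units with 2 residual degrees of freedom, and p-values were adjusted by Benjamini-Hochberg over all genes. The fits were tested on simulated data. Intervals are 95% intervals of a difference.

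Members and lists were chosen with earlier results of these data known. Beside the 10 members, up to 3 genes per list, direction and pair of lines with the largest called difference were named, up to 2 genes per direction on each array with the largest ratio past 0.5, and 3 genes each most like CDH1 and VIM. Some results the rule would name are not reported here. Alternatives covered background correction, scaling, probe averaging, detection, the mock units and each PC3 mock left out. A trend of the variance was added after seeing the data. All arrays shared 1 slide and scan, so no batch could be fitted.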

Additional observations from a re-analysis of the deposited data

How the results depend on the processing

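No paired analysis was possible because every treatment had a single array. Scaling to the 75th percentile gave 24 called mesenchymal genes for C4-2 against PC3, 19 for C4-2 against T24, 6 for C4-2 against 786-O, 24 for PC3 against 786-O and 19 for T24 against 786-O, and 21 epithelial genes in each of the latter pairs, against 13, 9, 12, 13, 9, 10 and 9. Of all 43315 genes that scaling called 31351 higher and 6466 lower for C4-2 against PC3, and 29763 and 5527 for C4-2 against T24. For C4-2 against 786-O it called 2590 and 2072. Of 43317 genes it called 6673 and 30743 for PC3 against 786-O, and 5453 and 28883 for T24 against 786-O. This scaling also reversed ZEB1 between T24 and 786-O to 0.41. With an offset of 0, members called fell to 2 for PC3 against 786-O and 3 for T24 against 786-O, with 4 epithelial and 5 mesenchymal genes in the latter. Over all genes that offset called 2340 higher and 1972 lower in the former pair and 554 and 708 in the latter. Without background correction 8 members were called for C4-2 against 786-O and 6 for PC3 against T24, and 14 mesenchymal genes for T24 against 786-O. Over all genes the calls in these pairs were 4874 higher and 4516 lower, 3471 and 4129, and 3143 and 3092. The scanner's processed signal, which moved the median of all genes by −1.01 to 0.91, gave 20, 17 and 18 mesenchymal genes for C4-2 against PC3, C4-2 against T24 and T24 against 786-O, and 4 members for PC3 against T24, as did the mean over probes. Of all genes the processed signal called 20225 higher and 5952 lower for C4-2 against PC3, and 14034 and 4284 for C4-2 against T24. It called 2779 and 15727 for T24 against 786-O, and 2806 and 2741 for PC3 against T24. The mean over probes called 2470 and 3543 for PC3 against T24. With 8 mocks as separate samples 9, 6 and 8 members were called for C4-2 against 786-O, PC3 against T24 and PC3 against 786-O, 17 epithelial and 17 mesenchymal genes for PC3 against T24, and 20 and 18 mesenchymal genes for PC3 and T24 against 786-O. Of all genes this called 6539 higher and 5851 lower for C4-2 against 786-O, and 5392 and 5996 for PC3 against T24. For PC3 and T24 against 786-O it called 6557 and 6551, and 5896 and 5391. Genes above background alone gave 7 and 5 members for C4-2 against 786-O and PC3 against T24, and the variance trend, chosen after seeing the data, gave 8 and 5. In these pairs genes above background alone had 4353 higher and 3973 lower, and 2853 and 3718. The variance trend gave 4796 and 4399, and 3160 and 3895, over all genes. Leaving out each PC3 mock in turn gave 4 to 7 members for C4-2 against 786-O, 2 to 5 for PC3 against T24, 3 to 7 for PC3 against 786-O and 2 to 7 for T24 against 786-O, with the fewest for T24 against 786-O without the bisamide 24 h mock. Epithelial genes ranged over 14 to 25 for C4-2 against PC3, 5 to 15 for PC3 against T24, 4 to 14 for PC3 against 786-O and 2 to 11 for T24 against 786-O, each lowest without the bisamide 48 h mock, and mesenchymal genes over 8 to 17 for PC3 against 786-O and 3 to 14 for T24 against 786-O. All-gene calls ranged over 3786 to 6103 higher and 2728 to 5350 lower for C4-2 against PC3. They were 2765 to 5254 and 2480 to 4726 for C4-2 against 786-O, and 1168 to 3742 and 1638 to 4261 for PC3 against T24. For PC3 against 786-O they were 1515 to 4404 and 2253 to 4663, and for T24 against 786-O 886 to 3561 and 1043 to 3434. EPCAM between PC3 and T24 ranged from −0.446 to 0.286. Members with a ratio past 0.5 numbered 1 for miR-125b-1-3p, 2 for miR-199-3p and 2 for miR-532-5p under plain subtraction, an offset of 0 and the scanner's ratio, and 1, 1 and 2 without correction. Over all genes measured these numbers were 1666 to 2248, 2473 to 3077 and 3957 to 4687 under the former settings. Without correction they were 841, 1290 and 2137, and in the main setting 496, 705 and 1139. Median centring, which left the median of measured genes at −0.03 to 0.45, gave 9 and 8 with bisamide at 24 h and 48 h, 7 for miR-125b-1-3p, 4 for miR-199-3p, 2 and 5 for the 5p and 3p strands of miR-532, 4 and 5 with miR-140-5p and miR-140-3p, and 0 past 1.5 with miR-532-3p. Of all genes measured it put 8652 of 19240 and 8360 of 19020 past 0.5 with bisamide at 24 h and 48 h. For miR-125b-1-3p it put 7704 of 18693 there, and for miR-199-3p 4570 of 15686. With miR-532-5p and miR-532-3p the numbers were 1297 of 15669 and 2700 of 15442. With miR-140-5p and miR-140-3p they were 6354 of 17624 and 7886 of 17532. Subtracting the median of other arrays gave 1 with bisamide at 24 h and 1 for miR-199-3p, where 302 and 804 of all genes measured were past 0.5. A size of 1 in place of 1.5 gave 2 for miR-532-3p, beside 99 of all genes measured. The cause of these differences was not tested. Signals near background limit CDH1 outside C4-2, FN1 and SNAI2.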
